A study of Mus musculus with 8 samples.

Results

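The 42 genes examined here carry cells through the cell cycle and copy their DNA. They were listed by name, as cyclins and cyclin-dependent kinases, E2F factors and the pocket proteins that bind them, origin licensing and replication fork genes, and mitotic regulators, and are 42 of 21755 protein-coding genes in the GENCODE annotation of mm10. In each of 8 libraries, the promoter peak of a gene was the strongest peak, by its -log10 p-value, with its summit within 1 kb of a transcription start site (TSS). All other peaks in the gene body or up to 20 kb beyond it were joined over the 8 libraries into 339 further regions, out of 123260 regions in the genome. A promoter peak was found in all 8 libraries at 38 of the 42 genes (90.5%), and at 11254 of the 21755 protein-coding genes (51.7%).

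Open chromatin was mapped with ATAC-seq, which uses the transposase Tn5 to cut accessible DNA, in bone marrow of female 129Sv4/Jae x B6 mice aged 4.5 months. LSK+ cells (Lin- Sca-1+ c-Kit+) include hematopoietic stem cells and multipotent progenitors, and LSK- cells (Lin- Sca-1- c-Kit+) include myeloid and erythroid progenitors. WT mice were compared with XistΔ/Δ mice, which lack Xist in blood cells, to ask what loss of the RNA that silences an X chromosome does to these cells. There were 4 groups of 2 libraries (LSK+ WT, LSK+ XistΔ/Δ, LSK- WT and LSK- XistΔ/Δ), each library from about 10000 sorted cells. The deletion was made by Vav-iCre, a Cre transgene active throughout the blood lineage, so it was not particular to the sorted cells, and both sorted populations are mixtures of cell types. The study calls its replicates biological, and since the sources used here do not tie each library to a mouse, the p-values measure the spread between these libraries. A difference in accessibility of bulk cells can come from the share of cells with open chromatin or from openness per cell, and these cannot be told apart here.

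The lists held 29829 to 91590 peaks, and the background pileup, which rises with depth, ran from 0.482 to 3.87 fragments. Libraries paired by cell type and replicate number were deeper in XistΔ/Δ than in WT in 4 of 4 pairs. The summit of a member's promoter peak was covered by 12 to 689 fragments, with medians of 64 to 299.5 by library. Xist had a promoter peak (within 3 kb) in 4 of 4 WT libraries, at the 51.2 to 80.6 percentile, and in 1 of 4 XistΔ/Δ libraries, LSK- replicate 2, at 26.9. Of 8 LSK- marker genes, 7 had the higher median promoter percentile in LSK- cells, and Gata1 and Klf1 had a promoter peak in 4 of 4 LSK- and 0 of 4 LSK+ libraries. Of 8 LSK+ markers, 4 were higher in LSK+ and 3 in LSK-, and Ly6a, which encodes Sca-1, had no promoter peak in any library. T cell markers had no promoter peak (0 of 4 genes), and of 4 B cell markers only Pax5 had one, in a single library at the 0.519 percentile. Of 4 mature neutrophil markers 3 had a promoter peak somewhere, Camp in 4 of 4 LSK- and 0 of 4 LSK+ libraries, Ngp in 2 LSK- libraries, and Ltf in 4 of 4 LSK+ and 2 of 4 LSK- libraries.

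The cell cycle turns on cyclins that bind and activate cyclin-dependent kinases. D cyclins with Cdk4 or Cdk6 phosphorylate the pocket proteins Rb1, Rbl1 and Rbl2, which frees E2F factors to transcribe the genes of S phase, and origins licensed by Orc1, Cdc6, Cdt1 and the Mcm helicase then fire. Mitotic genes are held off by a complex of pocket proteins and E2f4 that binds the CHR element, and are switched on later, often through CCAAT boxes bound by NF-Y. Most hematopoietic stem cells rest outside the cycle, whereas the progenitors after them divide.

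Promoter sequences are shown for 8 members whose promoters carry these elements in different combinations or lie near the top of the comparison of cell types. Each is the 200 bases before the RefSeq start (GRCm38.p6), 5′ to 3′ on the gene's strand. Capitals mark CCAAT, the CHR element TTTGAA, and and, as words of the E2F site, TTCCCGC or TTCGCGC and also TTGCCGC or TTGGCGC, each on either strand, so that ATTGG is CCAAT on the other strand. The positions are chr7:135716380-135716579 (minus strand) for Mki67, chr11:99024190-99024389 (minus) for Top2a, chr10:69352913-69353112 (minus) for Cdk1 and chr13:100786487-100786686 (minus) for Ccnb1. They are chr8:75109309-75109508 (plus) for Mcm5, chr1:128359706-128359905 (minus) for Mcm6, chr2:157204535-157204734 (minus) for Rbl1 and chr7:38107491-38107690 (minus) for Ccne1.
Mki67: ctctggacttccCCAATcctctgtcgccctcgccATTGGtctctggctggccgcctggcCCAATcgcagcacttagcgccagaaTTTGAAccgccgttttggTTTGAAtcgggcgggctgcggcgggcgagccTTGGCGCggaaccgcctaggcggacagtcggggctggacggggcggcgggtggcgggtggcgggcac
Top2a: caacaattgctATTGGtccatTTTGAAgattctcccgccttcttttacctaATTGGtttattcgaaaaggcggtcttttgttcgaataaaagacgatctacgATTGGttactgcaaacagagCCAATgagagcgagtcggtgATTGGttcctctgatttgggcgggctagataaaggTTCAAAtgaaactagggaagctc
Cdk1: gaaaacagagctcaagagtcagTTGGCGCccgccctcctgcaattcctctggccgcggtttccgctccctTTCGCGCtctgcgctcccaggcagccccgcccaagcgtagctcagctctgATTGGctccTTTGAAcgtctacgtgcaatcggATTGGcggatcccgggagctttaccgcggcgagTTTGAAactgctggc
Ccnb1: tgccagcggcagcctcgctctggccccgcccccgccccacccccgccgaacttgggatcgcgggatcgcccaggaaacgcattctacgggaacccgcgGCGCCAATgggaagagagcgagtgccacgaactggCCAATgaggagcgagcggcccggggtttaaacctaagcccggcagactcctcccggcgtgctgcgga
Mcm5: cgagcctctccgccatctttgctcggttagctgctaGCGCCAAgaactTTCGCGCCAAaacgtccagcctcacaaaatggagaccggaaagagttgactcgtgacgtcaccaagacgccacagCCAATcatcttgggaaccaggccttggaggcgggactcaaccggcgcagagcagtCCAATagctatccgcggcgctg
Mcm6: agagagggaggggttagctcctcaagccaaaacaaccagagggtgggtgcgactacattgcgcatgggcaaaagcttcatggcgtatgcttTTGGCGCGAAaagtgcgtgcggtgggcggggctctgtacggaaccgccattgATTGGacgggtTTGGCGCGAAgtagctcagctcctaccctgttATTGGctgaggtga
Rbl1: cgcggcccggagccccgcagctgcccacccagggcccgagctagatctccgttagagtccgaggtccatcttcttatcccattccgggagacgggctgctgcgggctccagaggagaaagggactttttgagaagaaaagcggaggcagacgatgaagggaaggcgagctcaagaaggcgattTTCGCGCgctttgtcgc
Ccne1: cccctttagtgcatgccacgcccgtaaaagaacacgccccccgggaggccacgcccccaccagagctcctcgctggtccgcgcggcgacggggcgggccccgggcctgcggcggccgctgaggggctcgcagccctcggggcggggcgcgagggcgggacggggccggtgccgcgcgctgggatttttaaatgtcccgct

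All 3 elements stood in the Mki67 and Cdk1 promoters, Top2a held CCAAT and CHR words, and Ccnb1, Mcm5 and Mcm6 held CCAAT and E2F words. In Ccnb1 an E2F word and a CCAAT shared letters. Rbl1 held a single E2F word close to its start, and the Ccne1 stretch held none of these letters. The summit of the promoter peak lay inside the stretch shown in 8 of 8 libraries for Mki67, Top2a, Cdk1, Mcm5, Mcm6 and Ccne1, in 5 for Ccnb1 and in 3 for Rbl1.

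RefSeq windows of 300 bases, from 250 before to 50 after the start, were at hand for 33 of the 42 members (37 windows). This is 78.6% of the members, under the 80% set for a statement on the whole list, so such a statement is void and the shares describe these 33 genes only. CCAAT was found at 25 of the 33 genes and in 73.0% of windows, against 37.4% of all 32851 windows and 38.1% of those of genes with a promoter peak in all 8 libraries. E2F words were found at 17 genes and in 48.6% of windows, against 9.57% of all windows and 17.5% of the open ones. The CHR element was found at 13 genes and in 35.1% of windows, against 17.9% and 11.5%. Of 36 E2F matches 4 overlapped a CCAAT, in Ccnb1, E2f8 and Mcm7. These are matches of letters, not binding sites. The windows of E2f1, E2f8 and Cdc6, and a window each of Ccnd3, E2f2, E2f3 and Mcm7, held no promoter summit in any library. They are included in these shares.

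By phase the letters were spread unevenly. All 11 G2/M genes with a window held CCAAT, 8 held the CHR element and 3 an E2F word. Of 9 S phase genes, 7 held CCAAT, 7 an E2F word and 1 the CHR element. Of 10 G1/S genes, 6 held CCAAT, 7 an E2F word and 4 the CHR element, and of 3 G1 genes 1 held CCAAT and 0 either of the others. The summit lay upstream of the nearest TSS, by its median over libraries, at 35 of 38 members (92.1%) and at 8010 of 11254 genes (71.2%), with a median position of -72.0 bp for members and -38.5 bp for all genes.

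**Figure D1:**
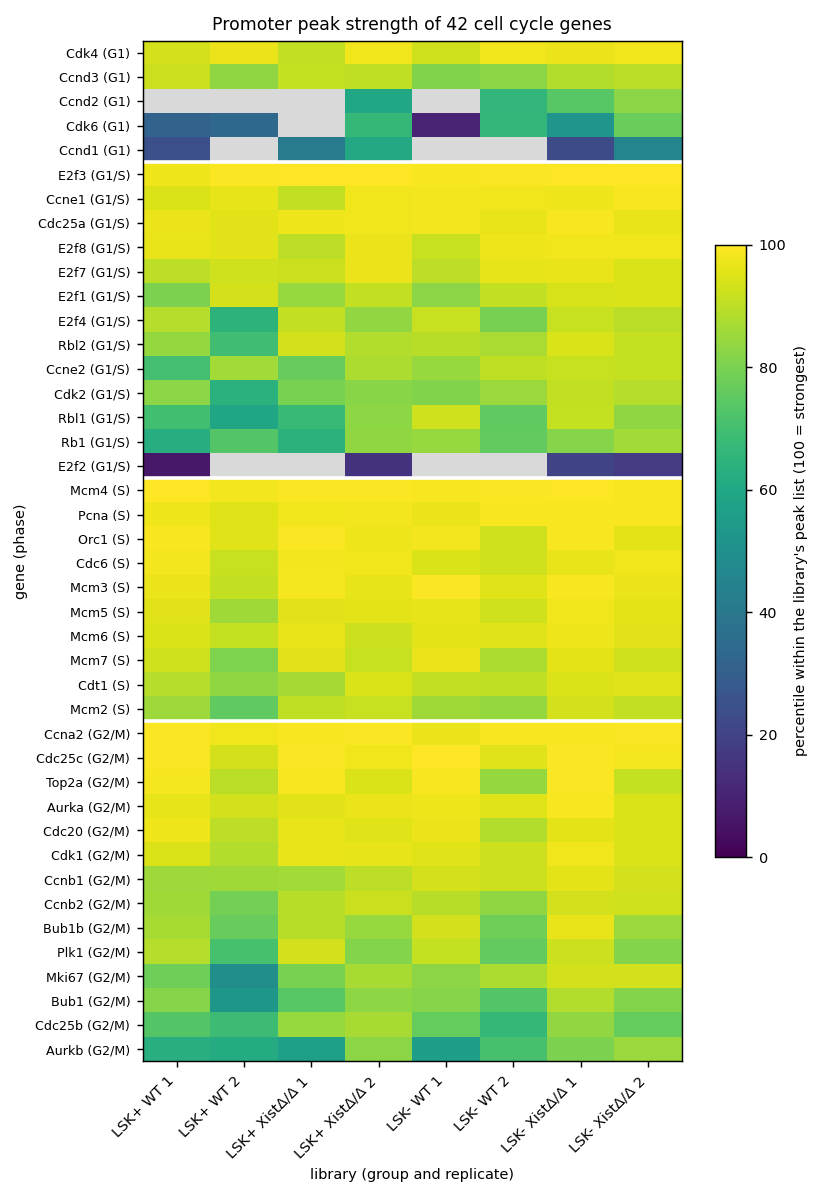
Percentile of the promoter peak within the peak list of its library (colour, 100 for the strongest peak) for the 42 genes (vertical axis, grouped by phase) in the 8 libraries (horizontal axis), with grey where no promoter peak was called. Grey cells occur only at Ccnd1, Ccnd2, Cdk6 and E2f2.

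Levels are given next as within-list percentiles, where 100 is the strongest peak of a library. Values are in the order WT replicates 1 and 2 and XistΔ/Δ replicates 1 and 2. Over the 38 genes with a promoter peak in all 8 libraries the median percentile was 87.3 to 96.3 by library, and it was 80.4 to 92.9 over all such protein-coding genes. The number of members with a promoter peak was 39 to 42 by library.

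Among the D cyclins and their kinases, which act in G1, 3 of 5 genes lacked a promoter peak in some library. Ccnd1, cyclin D1, lay at 24.4 in LSK+ WT replicate 1. In XistΔ/Δ it lay at 40.9 and 60.2 (LSK+) and at 23.3 and 45.5 (LSK-). It had no promoter peak in LSK+ WT replicate 2 or in either LSK- WT library, where the nearest summit lay at -1606 to -1779 bp. Its promoter peak was thus called in 4 of 4 XistΔ/Δ and 1 of 4 WT libraries, and the XistΔ/Δ libraries were the deeper ones in every pair. Whether depth plays a part was not tested. With the starts of every GENCODE transcript, an alternative added after the data were seen, Ccnd1 had a promoter peak in all 8 libraries. That set adds a start at 144938197, inside the gene. A separate intronic peak, between 144937403 and 144938008, lies within 1 kb of this added start and was called in all 8 libraries. The split by genotype thus concerns the narrow peak over the start used in the comparisons, and the added start does not change it.

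Ccnd2, cyclin D2, lay at 59.5 in LSK+ XistΔ/Δ replicate 2, at 65.9 in LSK- WT replicate 2 and at 73.9 and 82.5 in LSK- XistΔ/Δ. The other 4 libraries had no peak over the TSS, and their nearest summit lay at -1198 to -1558 bp, in a wide peak at the 55.2 to 70.7 percentile. The full GENCODE set, added as an alternative after the data were seen, places a transcript start inside that peak, and with it Ccnd2 had a promoter peak in all 8 libraries. Cdk6, a kinase partner of the D cyclins, lay at 31.8, 33.95 and 66.7 in LSK+ WT 1, WT 2 and XistΔ/Δ 2, and at 10.1, 66.3, 52.2 and 77.2 in LSK-. The exception, LSK+ XistΔ/Δ replicate 1, had a peak of 1916 bp that covered the TSS but had its summit at -1038 bp. The gap at Cdk6 was thus in where the summit fell, and with the full GENCODE set Cdk6 had a promoter peak in all 8 libraries. At Ccnd2 the wide upstream peak was present in 8 of 8 libraries, and what 4 of them lacked was the separate narrow peak over the TSS.

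The remaining G1 genes were open in every library. Cdk4, the other D cyclin kinase, lay at 93.7, 97.2, 90.7 and 98.0 in LSK+ and at 92.9, 97.9, 97.2 and 97.8 in LSK-. Ccnd3, cyclin D3, lay at 91.9, 83.5, 91.1 and 90.4 in LSK+ and at 80.9, 82.8, 88.5 and 89.7 in LSK-. Cdk4 was above Ccnd3 in 7 of 8 libraries, and on this scale the cell types overlapped at both genes. The Ccnd3 peak was not at the same site in every library. Its summit lay between 47593460 and 47593495 on chromosome 17 in LSK+ WT replicate 2, LSK- WT replicate 2 and LSK- XistΔ/Δ replicate 1, and about 2 kb away, between 47595641 and 47595679, at another annotated TSS, in the other 5 libraries.

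Of the genes that start S phase, Cdc25a, a phosphatase that activates Cdk2, was the highest of its class by mean percentile, at 97.2, 95.5, 97.5 and 98.0 in LSK+ and 98.3, 96.6, 98.9 and 96.5 in LSK-. Cdk2, the kinase partner of cyclin E, was the lowest, at 82.5, 63.8, 79.7 and 82.4 in LSK+ and 81.0, 84.8, 90.9 and 88.8 in LSK-. Cdc25a varied over less than 4 percentile points, whereas Cdk2 was lowest in LSK+ WT replicate 2, the shallowest library. Ccne1 and Ccne2, cyclins E1 and E2, ranged from 90.9 to 99.0 and from 70.3 to 91.7. By the median over libraries Ccne1 stood above Cdc25a, at 97.61 against 97.37.

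The E2F factors spanned the list. E2f3, an activator of S phase genes, had the strongest promoter peak of the factors, at 97.5, 99.4, 99.7 and 99.8 in LSK+ and 99.0, 99.3, 99.7 and 99.8 in LSK-. E2f1, another activator, lay at 80.4, 93.4, 84.4 and 90.7 in LSK+ and 82.6, 91.0, 94.0 and 94.7 in LSK-. E2f2, the third activator, had a promoter peak in 4 libraries only, at 6.45 in LSK+ WT replicate 1, 14.6 in LSK+ XistΔ/Δ replicate 2, and 20.7 and 17.7 in LSK- XistΔ/Δ. These were among the weakest peaks of their lists, and none of the 4 covered the GENCODE TSS used here. Those in LSK+ XistΔ/Δ replicate 2 and LSK- XistΔ/Δ replicate 1 spanned the RefSeq start, at 136172274 on chromosome 4. With the full GENCODE set E2f2 had a promoter peak in 7 libraries.

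E2f8 and E2f7 repress E2F targets late in S phase, and E2f4 represses them in resting cells. E2f8 was the highest of the 3, at 96.8, 95.5, 90.2 and 97.0 in LSK+ and 91.5, 97.5, 97.8 and 97.8 in LSK-. E2f4 was the lowest, at 88.8, 64.8, 90.8 and 83.6 in LSK+ and 91.7, 79.4, 91.5 and 89.5 in LSK-, and E2f7 ranged from 89.9 to 97.1. The 3 ranges overlapped.

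Pocket proteins, the brakes on E2F, had the lowest median percentile of the 8 role classes in 7 of 8 libraries, counting the genes open in all of them, and in LSK- WT replicate 1 the D cyclins and their kinases were lower. Rbl2, which encodes p130, lay at 84.1, 69.3, 93.0 and 88.6 in LSK+ and 89.2, 87.4, 94.3 and 91.2 in LSK-. Rb1, the retinoblastoma gene, lay at 62.2, 73.3, 64.1 and 83.5 in LSK+ and 84.5, 76.1, 81.8 and 86.1 in LSK-. Rbl1, which encodes p107, ranged from 58.9 to 92.9. Rb1 was below Rbl2 in 7 of 8 libraries.

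Origin licensing and fork genes were open in all 8 libraries, 10 of 10. Mcm4, a subunit of the replicative helicase, was the highest, at 99.8, 98.2, 99.4 and 99.3 in LSK+ and 99.0, 99.5, 99.6 and 99.1 in LSK-. Mcm2, another subunit, was the lowest, at 85.2, 75.7, 90.5 and 91.4 in LSK+ and 85.6, 84.0, 93.0 and 90.8 in LSK-. The TSS of Prkdc lies within 1 kb of that of Mcm4, and the peak cannot be assigned to either gene. The other helicase subunits ranged from 90.8 to 99.5 (Mcm3), 85.7 to 97.8 (Mcm5), 91.2 to 97.3 (Mcm6) and 80.7 to 97.0 (Mcm7). The loading factors Orc1, Cdc6 and Cdt1 ranged from 92.7 to 99.5, 91.4 to 98.1 and 83.2 to 95.1, and Pcna, the sliding clamp, from 95.2 to 99.1. Promoters shared with another gene's TSS within 1 kb were also found at Mcm7 (Ap4m1), Orc1 (Prpf38a), Pcna (AV099323), Cdc25b (Spef1), Cdc25c (2010110K18Rik) and Aurka (Cstf1), 7 members in all. Genes with a symbol starting with Gm were left out of this count, so other promoters may be shared with such a gene.

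The 9 mitotic cyclins, kinases and phosphatases were open in every library. Ccna2, cyclin A2, was the highest, at 99.4, 98.0, 99.1 and 99.5 in LSK+ and 97.1, 98.9, 99.1 and 99.2 in LSK-. Aurkb, the kinase of the chromosomal passenger complex, was the lowest, at 62.6, 61.4, 57.0 and 82.5 in LSK+ and 55.9, 71.0, 80.4 and 84.9 in LSK-. Every Ccna2 value was above every Aurkb value. The others ranged from 85.5 to 96.0 (Ccnb1, cyclin B1), 78.9 to 93.2 (Ccnb2, cyclin B2), 88.5 to 97.7 (Cdk1, the mitotic kinase), 70.8 to 93.3 (Plk1, Polo-like kinase) and 93.2 to 99.1 (Aurka, Aurora A). The phosphatases that activate Cdk1 ranged from 66.5 to 87.1 (Cdc25b) and 93.7 to 99.8 (Cdc25c).

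Of the spindle checkpoint genes and proliferation markers, Cdc20, which activates the anaphase-promoting complex, was the highest by mean percentile, at 97.5, 89.97, 96.8 and 95.1 in LSK+ and 97.2, 88.5, 95.9 and 94.8 in LSK-. By the median over libraries Top2a stood higher, at 96.55 against 95.52 for Cdc20. Bub1, a checkpoint kinase, was the lowest, at 81.8, 52.9, 74.0 and 83.2 in LSK+ and 81.8, 73.2, 88.6 and 81.5 in LSK-. Each Cdc20 value was above that of Bub1 in the same library, and the cell types overlapped at both. Bub1b, which encodes the checkpoint protein BubR1, Mki67 and Top2a ranged from 76.7 to 96.8, 49.5 to 93.3 and 84.2 to 99.2.

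Comparisons between libraries used the promoter rank, which is the percentile of a promoter among the 11254 genes with a promoter peak in all 8 libraries, so that 50 is the middle of every library whatever its depth. The median rank of the 38 members tested was 59.5 to 69.8 by library, and 24 of 38 (63.2%) had a mean rank over 50, as did 49.5% of all genes tested. The 10 S phase genes had medians of 73.6 to 84.3, and 9 of 10 had a mean over 50. Medians were 46.6 to 70.6 for the 12 G1/S genes tested, 51.9 to 67.4 for the 14 G2/M genes and 48.5 to 74.1 for the 2 G1 genes, Cdk4 and Ccnd3. For the 3 pocket protein genes they were 16.7 to 51.3. Among these 38 members the S phase median was above the G1/S and the G2/M median in 8 of 8 libraries. Replication and mitotic genes outside the list, given below, did not keep this order in every library. These are descriptions of the lists, with no test.

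**Figure D2:**
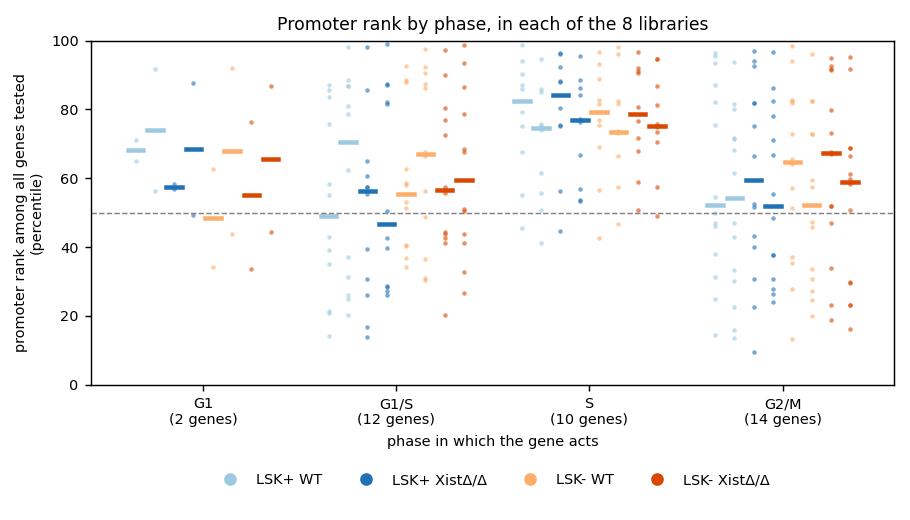
Promoter rank among the 11254 genes tested (vertical axis, percentile) of the 38 genes by phase (horizontal axis), with a point for each gene and a bar for the median in each of the 8 libraries, coloured by group. The S phase medians lie between 73.6 and 84.3, above the dashed line at 50 that marks the middle of all genes.

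The first comparison asked whether the promoters differed between stem-enriched LSK+ and progenitor LSK- cells. Mki67, which encodes the proliferation marker Ki-67, was higher in LSK- cells, and it was the only member past the threshold. LSK+ cells ranked it at 31.3 and 13.6 in WT and at 30.7 and 37.7 in XistΔ/Δ, and LSK- cells at 37.2 and 57.4 in WT and at 52.0 and 61.1 in XistΔ/Δ. It was lower in LSK+ in 4 of 4 pairs of the same genotype and replicate, although the groups overlapped narrowly, since the highest LSK+ library (37.7) was above the lowest LSK- library (37.2). The difference was -23.6 ± 6.33 percentile points (SE, n = 4 and 4), with an adjusted p of 0.0421 by limma. By cell type the summit of this peak was covered by 54, 21, 80 and 104 fragments in LSK+ and by 72, 92, 264 and 146 in LSK-.

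The Mki67 call rested on single libraries. It was kept without LSK+ WT replicate 1 and lost when any of the other 7 libraries was left out, with adjusted p-values of 0.0225 to 0.219 and differences of -31.1 to -15.6 points. Without the replicate block the adjusted p was 0.601 by limma.

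Members called were thus 1 of 38 higher in LSK- and 0 of 38 higher in LSK+, against a background of 2.45% of the 11254 genes higher in LSK- and 2.96% higher in LSK+. At an unadjusted p under 0.05 there were 10 of 38 members and 2611 of 11254 genes (23.2%). Members' shares were near the background on both counts. The median difference was -3.01 points over the members, of which 13 were higher and 25 lower in LSK+, and 0.00333 points over all genes.

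Several members followed without reaching the threshold. Rbl1 differed by -19.3 ± 6.14 points (SE, adjusted p = 0.0799, limma), with ranks of 20.9, 20.3, 16.7 and 27.1 in LSK+ and 62.7, 30.4, 42.5 and 26.6 in LSK-. Ccnd3 differed the other way, by 18.2 ± 6.00 points (adjusted p = 0.0885, limma), with ranks of 65.1, 56.4, 58.2 and 49.3 in LSK+ and 34.1, 43.9, 33.7 and 44.5 in LSK-. Ccnd3 was the only member whose cell types did not overlap, 1 of 38 with LSK+ above and 0 of 38 with LSK- above, against 3.5% and 3.27% of all genes. These ranks mix the 2 sites given above, and the difference was 3.78 points with a TSS distance of 3 kb (adjusted p = 0.713, limma), 6.28 when ranked by fold and 3.73 on percentiles of the whole list. Ccnb1 differed by -16.6 ± 5.63 points (adjusted p = 0.0956, limma), with ranks of 46.1, 61.6, 43.2 and 48.4 in LSK+ and 65.5, 73.0, 67.6 and 59.7 in LSK-. It was lower in LSK+ in 4 of 4 pairs, with a single LSK+ library inside the LSK- range. Orc1 (7.51 ± 2.51, adjusted p = 0.0913), Ccne1 (-10.4 ± 3.62, adjusted p = 0.103), Cdc25b (11.4 ± 4.43, adjusted p = 0.138) and Cdc6 (9.98 ± 4.10, adjusted p = 0.159) came next. Single libraries moved some of these. Rbl1 passed without LSK+ XistΔ/Δ replicate 2 (-26.0 points) or LSK- WT replicate 2 (-26.6 points), but stood at -12.6 without LSK+ XistΔ/Δ replicate 1 and at -11.7 without LSK- WT replicate 1. Ccne1 passed without LSK+ XistΔ/Δ replicate 2 (-14.98 points) and stood at -5.82 without LSK+ XistΔ/Δ replicate 1 and at -6.49 without LSK- WT replicate 1. Cdc6 passed without LSK+ WT replicate 2 (14.6 points) and when ranked by fold (41.2 points), and stood at 4.85 without LSK+ WT replicate 1 and at 5.095 without LSK- XistΔ/Δ replicate 1.

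**Figure D3:**
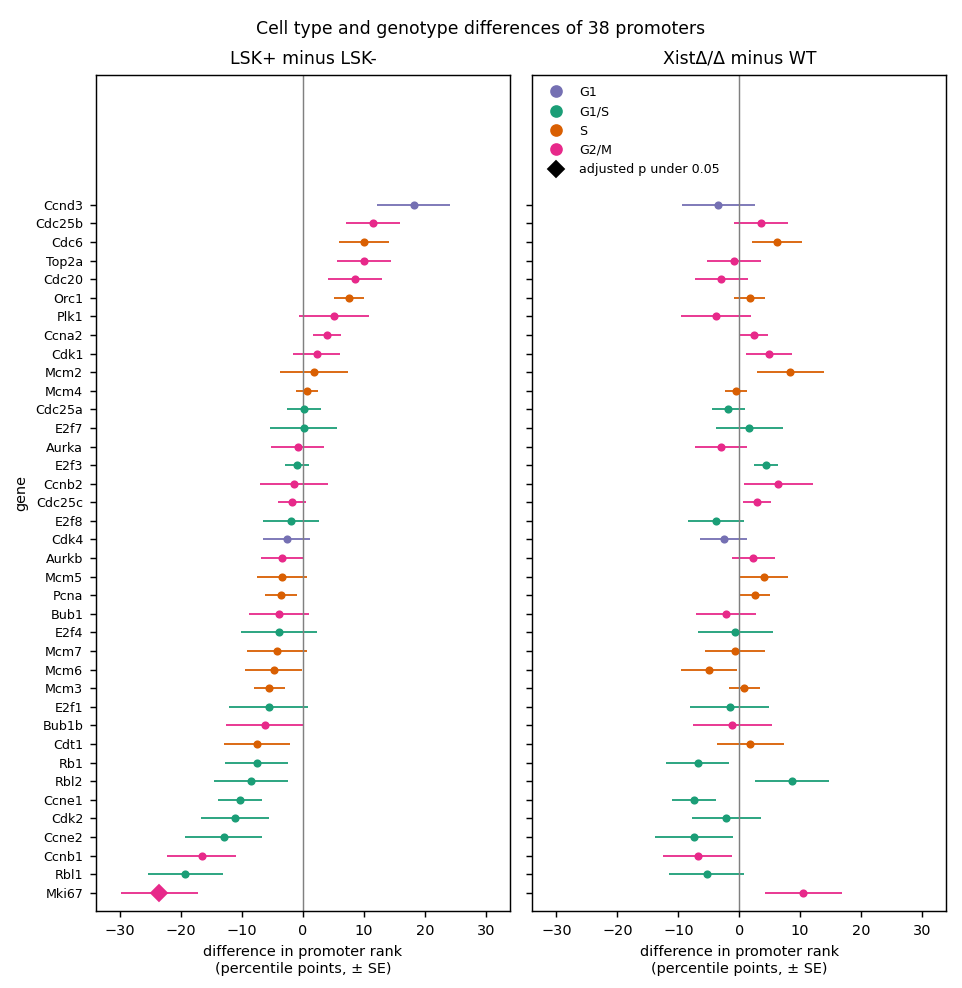
Difference in promoter rank (horizontal axis, percentile points, with SE) of the 38 genes (vertical axis) between cell types (left) and between genotypes (right), coloured by phase, with a diamond where the adjusted p was under 0.05. Mki67 at -23.6 in the left panel is the only diamond.

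Genes of the same pathways outside the list were compared in the same way. Of 93 such genes 90 had a promoter peak in all 8 libraries, as 35 replication genes, 38 mitotic genes and 17 other regulators. Their median rank by library was 63.0 to 74.5, 65.7 to 76.4 and 63.0 to 81.0, in that order. A mean rank over 50 was found at 68.6%, 76.3% and 94.1% of them, against 63.2% of the members tested. The mitotic genes stood above the replication genes in some libraries and below them in others, unlike G2/M and S phase among the members. Between cell types 2 of the 90 passed the threshold, both mitotic, against 609 of all 11254 genes (5.41%) in both directions together. Fzr1, which activates the anaphase-promoting complex in late mitosis and G1, ranked at 63.1, 89.7, 60.6 and 90.7 in LSK+ and 83.2, 98.5, 85.0 and 96.7 in LSK- (-14.8 ± 3.32 points, adjusted p = 0.0192, limma). Cenpa, the centromeric histone, ranked at 96.2, 72.4, 96.2 and 74.6 in LSK+ and 89.96, 55.0, 69.7 and 62.3 in LSK- (15.6 ± 4.21 points, adjusted p = 0.0433, limma). The 2 genes moved in opposite directions.

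The second comparison, of XistΔ/Δ with WT, gave no call. By limma 0 of 38 members were higher and 0 of 38 lower in XistΔ/Δ, and the background was 0% in either direction. At an unadjusted p under 0.05 there was 1 member, E2f3, and 719 of 11254 genes. E2f3 ranked at 87.0, 98.3, 98.1 and 98.9 in LSK+ and at 92.7, 97.5, 97.4 and 98.7 in LSK-, a difference of 4.41 ± 1.92 points (SE, adjusted p = 0.773, limma). Its LSK+ WT replicate 1 library was the lowest by over 5 points, and the genotypes overlapped.

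XistΔ/Δ was above WT in 4 of 4 pairs at 3 of 38 members, E2f3, Mcm2 and Ccnb2, against 7.97% of all genes, and WT was above XistΔ/Δ in 4 of 4 pairs at 0 of 38, against 8.22%. Mcm2 ranked at 45.4, 41.2, 56.4 and 53.4 in LSK+ and at 42.7, 46.8, 50.6 and 49.1 in LSK-, in the order of libraries above. All 4 XistΔ/Δ libraries were thus above all 4 WT libraries, and the difference was 8.37 ± 5.54 points (SE, adjusted p = 0.804, limma). Ccnb2 ranked at 47.0, 47.1, 51.7 and 55.4 in LSK+ and at 51.5, 45.8, 51.8 and 58.2 in LSK-. The genotypes did not overlap at Ccnb2 either, by a narrow gap, and its difference was 6.44 ± 5.58 points (SE, adjusted p = 0.837, limma). These were 2 of 38 members with all XistΔ/Δ libraries on top, against 0.542% of all genes, and 0 of 38 had all WT libraries on top, against 0.48%. Mki67 differed by 10.5 ± 6.33 points between genotypes (adjusted p = 0.785, limma). The median difference was -0.669 points over the members, of which 17 were higher and 21 lower in XistΔ/Δ.

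The genotype difference was then compared between the cell types. By limma 0 of 38 members passed, against 0% of all genes, and at an unadjusted p under 0.05 there was 1 member, E2f8, and 396 of 11254 genes. E2f8 ranked at 83.8, 86.8, 55.4 and 81.6 in LSK+ and at 57.9, 90.7, 80.5 and 86.4 in LSK-. Its XistΔ/Δ minus WT difference was -16.8 ± 6.54 points in LSK+ and 9.18 ± 6.54 points in LSK-, and these differed by -26.0 ± 9.25 points (SE, adjusted p = 0.9997, limma). The replicate 1 libraries carried most of this pattern, with the low values in LSK+ XistΔ/Δ and LSK- WT.

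Replicates differed by more than the groups did. The mean difference of replicate 1 and replicate 2 had a median size of 9.29 points over the 38 members, against 4.99 points between cell types and 2.97 between genotypes, and over all genes these were 9.49, 4.82 and 3.14 points. Top2a, the topoisomerase that untangles chromosomes, had the largest, with ranks of 93.5, 92.5, 94.1 and 92.7 in the replicate 1 libraries and 71.5, 66.9, 47.1 and 50.7 in replicate 2, a mean difference of 34.2 points. It was followed by Plk1 at 28.6 and Bub1b at 25.7 points, and E2f1 lay at the other end at -25.1. Replicate 1 was higher in all 4 groups at 9 of 38 members and replicate 2 at 8 of 38, against 28.4% and 27.7% of all genes. The replicates were also read on different sequencers, MGI for the first and Illumina for the other in every group, and at different read lengths. Replicate, instrument and read length thus cannot be told apart.

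Over the 31 members tested that had a RefSeq window, the replicate difference ran with the GC content of the window (Pearson's r = -0.793, Spearman's rho = -0.775). Over 8910 genes with a window the values were -0.497 and -0.513. Top2a had 47.7% GC, Bub1b 49.7%, Plk1 57.7% and E2f1 77.3%. At E2f1, E2f8 and Cdc6 the summit lay in the window in 0 of 8 libraries. Genes with more than 1 window, such as Ccnd3, E2f3 and Mcm7, carry the mean of their windows. At E2f3 these had 78.7% GC with 0 summits inside and 55.3% with 8. The difference between cell types ran less with GC over the members (r = -0.269, rho = -0.215), as did that between genotypes (r = -0.144, rho = -0.158). The points are genes of the same 8 libraries and not independent, so no p is given.

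**Figure D4:**
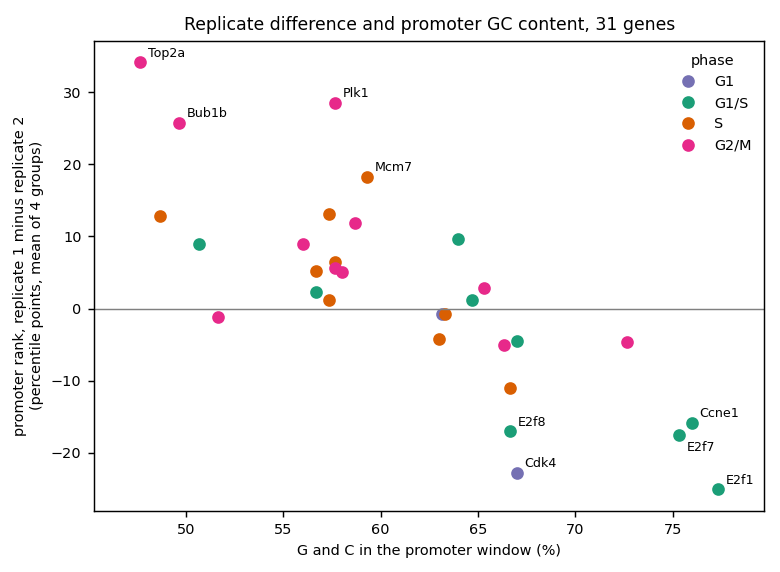
Mean difference in promoter rank of replicate 1 minus replicate 2 (vertical axis, percentile points) against the GC content of the promoter window (horizontal axis, %) for 31 genes, coloured by phase. Top2a at 47.7% GC stands at 34.2 points and E2f1 at 77.3% GC at -25.1 points.

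Beyond the promoters, the 42 loci held 104 to 290 further peaks by library. Of the 339 further regions, 118 lay in an intron of the member, 9 in an exon, 91 between genes, 66 in the body of another gene and 55 within 1 kb of another gene's TSS. Cdk6 had the most, 45, of which 3 were in all 8 libraries, and Ccnd3 had 23. In all 8 libraries there were 81 regions, of which 39 were at another gene's TSS, and 79 regions were seen in a single library. Lying near a member does not tie a region to it.

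Between LSK+ and LSK-, 5 of the 81 regions were higher in LSK+ and 6 in LSK-, against 11.6% and 9.12% of the 21360 regions tested. At an unadjusted p under 0.05 there were 23 of 81 regions and 7313 of 21360. These shares were not tested against the background, and they depend on the setting, as given with the alternatives. All 4 LSK+ libraries were above all 4 LSK- libraries at 3 of the 81 regions and below them at 6, against 8.27% and 6.93% of all regions tested. Ranks are given among the 21360 regions, in the same order of libraries, and distances from the member's TSS are negative upstream.

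Of the 3 calls that held when each of the 8 libraries was left out in turn, the first was an intron of Bub1b at 40.1 kb (chr2:118638009-118638647). It ranked at 13.3, 1.6, 8.0 and 3.2 in LSK+ and 44.8, 21.7, 37.5 and 27.9 in LSK- (-26.4 ± 5.22 points, adjusted p = 0.00198, limma). Every LSK- library was above every LSK+ library. The second lay at 17.8 kb, past the end of Cdc25b (chr2:131204460-131205083), and ranked at 26.9, 39.9, 31.9 and 23.7 in LSK+ and 2.6, 5.2, 6.8 and 6.1 in LSK- (25.4 ± 5.1 points, adjusted p = 0.00222, limma). The third was an intron of Rbl2 at 7.49 kb (chr8:91077244-91077932), which ranked at 73.1, 51.8, 71.6 and 54.0 in LSK+ and 42.4, 25.3, 30.6 and 19.5 in LSK- (33.1 ± 7.21 points, adjusted p = 0.00378, limma). At both of these LSK+ was higher in every library, with no overlap. The highest adjusted p of these 3 over the fits without a library was 0.0422, 0.0356 and 0.0363.

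The other calls were lost without some library. A region at -7.03 kb from Cdc6, in Wipf2 (chr11:98900524-98901070), ranked at 48.0, 9.0, 47.8 and 26.4 in LSK+ and 16.2, 2.1, 2.9 and 7.9 in LSK- (25.5 ± 6.23 points, adjusted p = 0.00797, limma). LSK+ WT replicate 2 lay among the LSK- libraries. Its call was lost without replicate 1 of LSK+ WT, LSK+ XistΔ/Δ or LSK- XistΔ/Δ, with adjusted p-values up to 0.111. A region at 61.9 kb, past the end of Bub1b (chr2:118659076-118660408), ranked at 5.3, 5.9, 15.8 and 1.5 in LSK+ and 60.7, 9.1, 53.6 and 16.9 in LSK- (-27.9 ± 6.96 points, adjusted p = 0.00896, limma). An intronic region at 6.12 kb in Ccnd3 (chr17:47511099-47511575) ranked at 37.2, 73.4, 36.3 and 73.6 in LSK+ and 63.0, 81.8, 82.5 and 84.7 in LSK- (-22.9 ± 6.50 points, adjusted p = 0.0188, limma). At both regions the cell types overlapped, and both calls were lost when any of the 4 replicate 1 libraries was left out, with adjusted p-values up to 0.108 and 0.161.

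Calls nearer the threshold were of this kind. A region at -18.5 kb from E2f4, in Nol3 (chr8:105278831-105279499), ranked at 13.7, 47.3, 7.5 and 38.7 in LSK+ and 27.5, 63.0, 50.3 and 59.0 in LSK- (-23.2 ± 7.26 points, adjusted p = 0.0310, limma). A region at -7.00 kb from Bub1b (chr2:118590840-118591508) ranked at 30.7, 7.9, 35.6 and 20.4 in LSK+ and 25.8, 0.1, 2.3 and 2.7 in LSK- (15.9 ± 5.14 points, adjusted p = 0.0351, limma). So the 3 regions at Bub1b did not share a direction, and this one was higher in LSK+. A region at -18.8 kb from Rbl2, in Chd9 (chr8:91050957-91051710), ranked at 60.2, 45.6, 39.1 and 40.0 in LSK+ and 22.0, 16.8, 14.7 and 40.3 in LSK- (22.8 ± 7.39 points, adjusted p = 0.0361, limma). A region at -19.6 kb from Mki67 (chr7:135735532-135736651) ranked at 55.7, 35.5, 75.5 and 52.9 in LSK+ and 64.7, 69.6, 88.3 and 71.7 in LSK- (-18.7 ± 6.45 points, adjusted p = 0.0474, limma). Like the Mki67 promoter it was higher in LSK- in 4 of 4 pairs. A region at -7.80 kb from Aurkb (chr11:69036935-69037968) ranked at 26.9, 10.5, 22.1 and 1.5 in LSK+ and 44.1, 19.3, 48.1 and 13.6 in LSK- (-16.0 ± 5.59 points, adjusted p = 0.0495, limma).

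The cell types overlapped at each of these 5 regions, and each call depended on single libraries. Those at E2f4, Mki67 and Aurkb held in 1 of the 8 fits without a library: without LSK- XistΔ/Δ replicate 2 at E2f4 and Aurkb, and without LSK- WT replicate 1 at Mki67. The Bub1b call at -7.00 kb held in 3, without LSK+ WT replicate 2, LSK- WT replicate 1 or LSK- XistΔ/Δ replicate 2, and that at Rbl2 in 2, without LSK+ WT replicate 2 or LSK- XistΔ/Δ replicate 2. Adjusted p-values reached 0.171 at E2f4, 0.272 at Bub1b, 0.247 at Rbl2, 0.287 at Mki67 and 0.216 at Aurkb. Without the replicate block none of the 11 regions passed, with adjusted p-values of 0.0517 to 0.462 by limma.

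**Figure D5:**
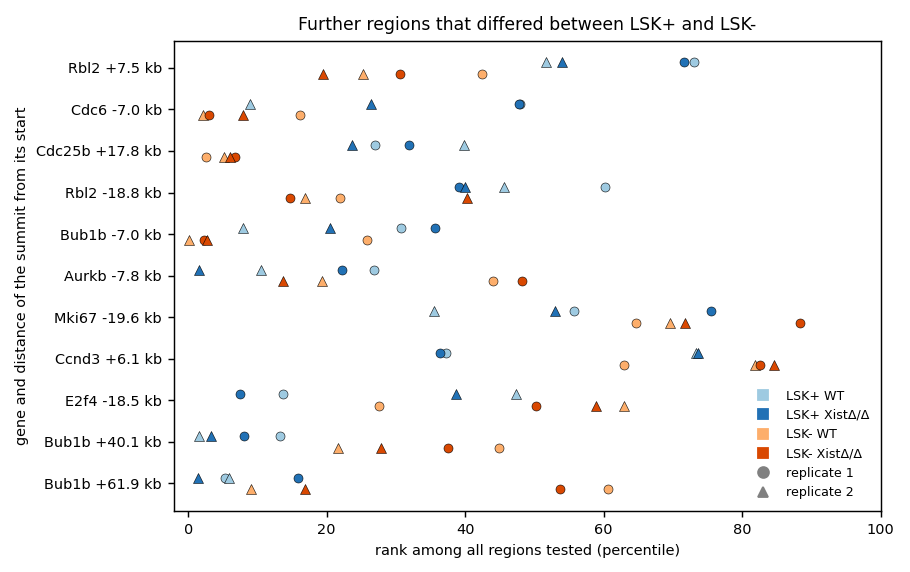
Rank among the 21360 regions tested (horizontal axis, percentile) of the 11 further regions past the threshold (vertical axis, by gene and distance from its TSS), with a point for each library, coloured by group and shaped by replicate. LSK- lies higher at 6 regions and LSK+ at 5, and the cell types are fully apart at the Bub1b intron, the region past Cdc25b and the Rbl2 intron.

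Genotype gave no call among further regions. By limma 0 of 81 were higher and 0 of 81 lower in XistΔ/Δ, against 0% of all regions in either direction, and for the difference between cell types it was 0 of 81 against 0%. At an unadjusted p under 0.05 there were 4 of 81 regions for genotype (973 of 21360) and 4 of 81 for the difference between cell types (932 of 21360).

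Some regions were called in 1 cell type only. A peak in all 4 LSK- and in no LSK+ library was found at 12 of the 339 regions, against 2.12% of all 123260 regions, and the reverse at 1 of 339, against 0.586%. The LSK- libraries were deeper than the LSK+ libraries of the same genotype and replicate in 4 of 4 pairs, and what depth adds to these counts was not tested. When all lists were cut to the length of the shortest, 11 regions were in LSK- only and 4 in LSK+ only, of 170. The share of all regions under this cut is not given, so these counts have no background.

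The strongest of the 12 lay in Ccnd3, at 30826 bp in an intron (chr17:47535582-47536375), where the within-list percentile in LSK- was 93.8, 74.6, 97.2 and 64.5. At -5513 bp from Mki67 (chr7:135721501-135722402) it was 91.3, 75.9, 94.9 and 66.0. The Mki67 promoter was also higher in LSK-, and at both regions replicate 1 was the higher library of each pair. A region past the end of Ccnd3, in Med20 (chr17:47617297-47618209), stood at 93.1, 68.2, 94.4 and 64.4 in LSK-. A region past the end of Cdc25b (chr2:131205726-131206202) stood at 90.9, 30.2, 91.1 and 27.5, close to the Cdc25b region above that was higher in LSK+. Of the other LSK- regions 4 were in introns of Cdk6, and there was 1 each at Ccne1, Rbl1, Ccnb1 and at a further place in Ccnd3. The LSK+ region lay at 19723 bp, past the end of E2f8, at 35.02, 6.27, 55.1 and 26.7.

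By genotype, 3 of 339 regions were called in 4 of 4 XistΔ/Δ libraries and in 0 of 4 WT libraries, against 0.466% of all regions, and 0 of 339 had the reverse, against 0%. They lay at Ccnd3, E2f8 and Cdc25c, with percentiles of 15.3 to 55.5. With lists of equal length there were 0 such regions.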

How the data were processed

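ATAC-seq libraries of LSK+ and LSK- cells from WT and XistΔ/Δ mice were analysed from their peak lists. Per the labels and the study's methods, the authors trimmed reads with Trim Galore, aligned them to mm10 with Bowtie2 2.3.5.1, removed poorly mapped and mitochondrial reads with SAMtools 1.10 and ran MACS2 2.2.7.1 on the paired-end fragments of each library by itself. No control library, removal of duplicates or Tn5 shift was stated for these lists. An unshifted summit can be off by a few bases. For each peak the deposited lists hold the fold enrichment at the summit (a ratio over local background), the -log10 p-value, the -log10 q-value (lowest 2.0), and a score, which is a multiple of the -log10 q without its decimals.

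Both -log10 p and fold rise with depth or differ with fragment length, so peaks were only ranked within a list. Depth was read as the background pileup, solved from fold and -log10 p. TSSs came from GENCODE M21 (basic, GRCm38), and 42 of 42 members were matched by symbol. Ranks were compared with limma 3.58.1 (R 4.3.3) over all 11254 genes, or 21360 regions, with a peak in all 8 libraries, with 4 groups and the replicate number as a block, and p-values were adjusted by the Benjamini-Hochberg method over all features tested (threshold 0.05). Peaks overlapping by 1 bp or more were merged into regions. The fits were tested on simulated data.

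The replicate numbers come from the sample titles. The block was in the main fit because the study compares genotypes replicate by replicate. Its sequencing list also puts the replicates on different platforms and read lengths. The replicate difference correlated between every pair of groups (Pearson's r of 0.597 to 0.786 over promoters and 0.393 to 0.705 over regions). The members and lists were chosen with earlier results of these data known. Values in every library were given for members past the threshold, the highest and lowest member of each role class by mean percentile, members lacking a promoter peak in some library, and 15 further regions, those past the threshold first and then those of 1 cell type or genotype by highest percentile. Values given for other members, chosen after the values were seen, are additions to this rule. Promoter sequences were RefSeq's (GRCm38.p6). Alternatives covered the ranking column, scale, peak strength, missing peaks, list length, block, each library, TSS distance, flank and overlap. Start sites of every GENCODE transcript were added after the data were seen. The erythroblast marker list is not reported here.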

Additional observations from a re-analysis of the deposited data

Results flagged for a closer look

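At 3 of the 38 promoters both LSK+ pairs of the same replicate moved with genotype in one direction and both LSK- pairs in the opposite direction, as did 1145 of all 11254 promoters (10.2%). For Cdc25b, XistΔ/Δ minus WT was 15.3 and 7.52 rank points in LSK+ replicates 1 and 2 and -4.75 and -3.77 points in LSK-, and the genotype difference in LSK+ exceeded that in LSK- by 15.7 points. Mcm7 moved by 7.78 and 3.11 points in LSK+ and by -13.5 and -0.240 points in LSK-, a difference of 12.3 points. For Mcm3 the values were 6.57 and 3.28 points in LSK+ and -5.46 and -1.14 points in LSK-, a difference of 8.23 points. The test of this difference by limma gave an adjusted p of 0.9997 at each of the 3 genes.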

How the results depend on the processing

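Members called between cell types numbered 1 of 38 promoters (Mki67) as reported, where 5.41% of all promoters were called. They were 4 with normal scores (Ccnb1, Ccnd3, Mki67 and Rbl1, or 10.5%, against 9.83% of all), 0 with percentiles of the whole list (1.155% of all), 0 with no replicate block and 2 with a TSS distance of 3 kb (Cdk6 and Mki67, or 4.88%, against 5.51%). When a library was left out they were 0 to 2, with 0.417% to 6.32% of all promoters called. Ranking by fold left 1 call, Cdc6 in place of Mki67 (2.63% of 38, against 2.63% of all). Counting missing peaks as 0 left 1, Ccnd2 (2.38% of 42, against 5.56%). Which gene passes thus depends on the setting. Ccne1 changed sign under the ranking by fold, to 1.38 points, and the cause was not tested. Further regions called between cell types, 11 as reported (13.6%, against 20.8% of all regions), were 29 with a flank of 50 kb (19.5% of 149, against 20.8%), 2 with percentiles of the whole list (2.47%, against 6.99%), 32 with missing peaks at 0 (18.0% of 178, against 17.4%), 3 with equal list length (5.26% of 57, against 15.7%) and 0 with no replicate block. They were 2 when only peaks covering 50% or more of a region counted (6.25% of 32, against 12.2%). Without a library they were 3 to 15, with 6.51% to 22.8% of all regions called. Of all promoters, 609 were called between cell types with the replicate block and 0 without it, and of all regions 4437 and 285. Regions present in 1 cell type, 13 as reported, were 5 under the coverage rule and 13 to 23 without a library, the highest without LSK- WT replicate 2. Regions present in 1 genotype, 3 as reported, were 5 with a flank of 50 kb, 0 with equal list length, 1 under the coverage rule and 3 to 9 without a library, the highest without LSK- WT replicate 1. For both presence counts a share over all regions is given only for the setting reported. Genotype calls, and calls of a genotype difference between cell types, stayed at 0 of the members under all 16 alternatives for promoters and all 17 for regions, with the replicate block or without. Members with a promoter peak in all 8 libraries, 38 as reported, were 37 to 41. The 2 libraries a group, the difference between replicates and lists without read counts limit what could be detected, and missing peaks can be a matter of depth.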
